A study of Mus musculus with 4 samples.

Results

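The cullins are the scaffold proteins of the largest group of ubiquitin ligases. Every probe set that the platform annotation maps to exactly 1 of the symbols Cul1, Cul2, Cul3, Cul4a, Cul4b, Cul5, Cul7 and Cul9 was taken. This gave 17 probe sets for 8 genes, out of 34945 single-gene probe sets for 18193 genes on the array. The arrays measured total RNA of sorted mouse CD4 single-positive thymocytes, T cell precursors that have settled on the CD4 lineage. The sort kept cells without CD25, without staining by CD1d loaded with PBS57, which marks NKT cells, and without the gamma delta T cell receptor. The first group, KO, came from CD4 Cre+ Cul3fl/fl mice, in which the CD4-Cre transgene is meant to delete floxed Cul3 in developing T cells. The second, LM, came from CD4 Cre- Cul3fl/fl mice, which carry the same floxed alleles without Cre. Both groups were on the B6 background, and each had 2 arrays. The sources used here give neither ages nor whether both samples of a genotype are separate mice, so p-values measure only the spread among these arrays, possibly a technical one. No group carried Cre without floxed Cul3, so the transgene's own effect and that of losing Cul3 cannot be told apart.

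A cullin binds a RING protein at its C-terminal end, which recruits the ubiquitin-loaded enzyme, and an adaptor at its N-terminal end, which brings the substrate. The ubiquitin-like protein NEDD8 is attached near the C-terminal end and activates the ligase. It is attached by a dedicated enzyme chain and removed by the COP9 signalosome. The members differ mainly in the adaptor. Cul1 uses Skp1 and F-box proteins, Cul2 and Cul5 use elongins B and C, Cul4a and Cul4b use Ddb1, and Cul3 binds proteins with a BTB domain directly. Cul7 works with the F-box protein Fbxw8, and Cul9, its close relative, is also known as Parc and binds p53. The question asked of these data was whether the RNA of Cul3, or of any other cullin, differed when Cul3 was targeted.

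No cullin probe set passed the test between the arrays labelled KO and the LM arrays. Of the 17 probe sets, 16 exceeded the background level on all 4 arrays and were tested, and 0 of the 16 passed the threshold in limma (adjusted p from 0.570 to 0.999). Across the table, 0.229% of 21793 tested probe sets passed (26 higher and 24 lower on the arrays labelled KO, or 41 and 57 with median centring), a rate at which fewer than 1 of 16 would pass. At an unadjusted p below 0.05 there was 1 cullin probe set of 16, against 7.97% of all tested. The cullin differences were 10 positive and 6 negative, with a median of 0.058 on the log2 scale, beside -0.0043 over all probe sets tested. In absolute size their median was 0.095, beside 0.17 over all, and 12 of the 16 lay within 0.25 of 0, as did 64.3% of all. Values of the 2 groups did not overlap for 4 of the 16 (3 higher and 1 lower), against 36.7% of all tested.

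**Figure D1:**
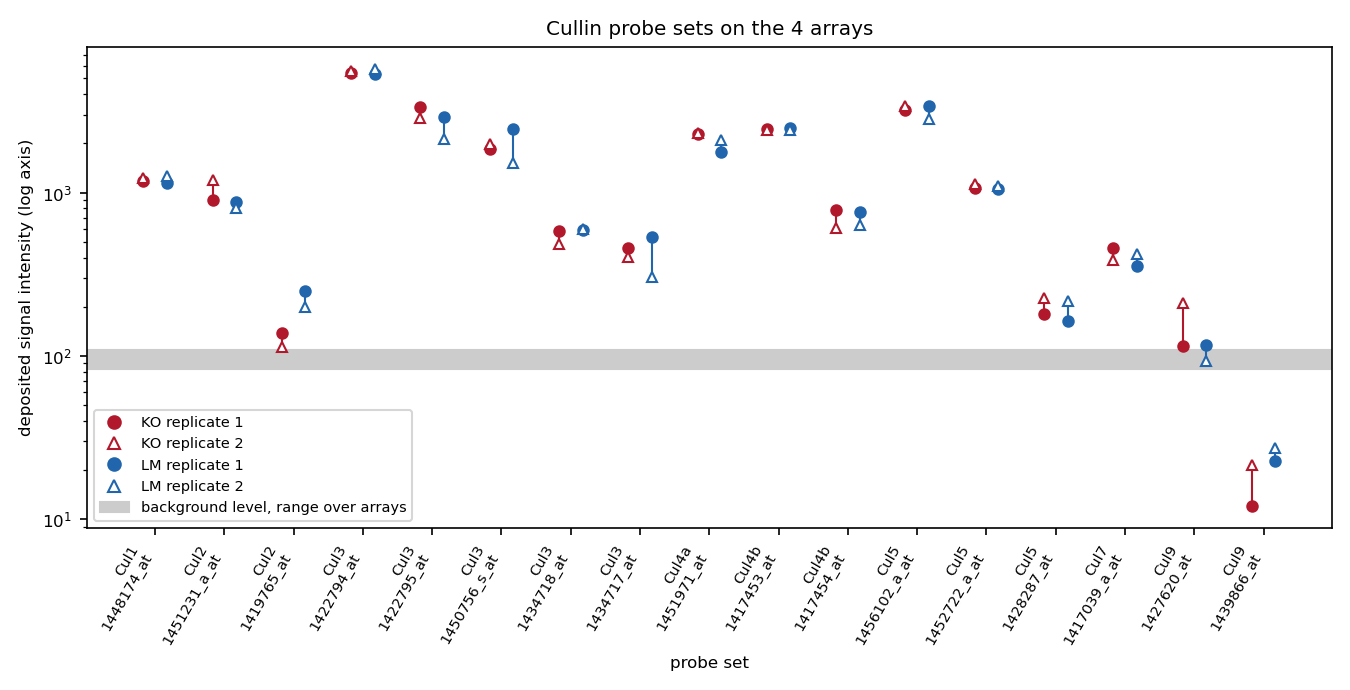
Deposited signal intensity (log axis) of the 17 cullin probe sets, with KO arrays in red and LM arrays in blue, replicate 1 as filled circles and replicate 2 as open triangles, joined by a line within a group. The grey band spans the background levels of the 4 arrays; 1 Cul9 probe set lies below it on every array, and the levels of different probe sets cannot be set against each other.

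The targeted gene was read by 5 probe sets, all well above background. The brightest, 1422794_at, had signals of 5380.2 and 5577 on the arrays labelled KO, against 5333 and 5724 on the LM arrays. The groups overlapped. The log2 difference was -0.010 ± 0.095 (SE, limma adjusted p = 0.997), and its 95% interval ran from 86.1% to 114% of the LM level. On every array this probe set stood at least 49.1-fold above the background level. By this probe set Cul3 RNA was not measurably lower on the arrays labelled KO. The sources used here do not say which exons are floxed or where each probe set lies in the transcript. Probes outside the deleted exons cannot check the deletion. The genotype is taken from the labels, so every direction given here refers to arrays labelled KO.

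The other Cul3 probe sets gave differences on both sides of 0. Probe set 1422795_at had 3355 and 2858 on the arrays labelled KO, against 2916 and 2139 on the LM arrays. Its difference of 0.31 ± 0.16 (SE, limma adjusted p = 0.677) was the largest of the 5, and its interval ran from 97.7% to 157% of the LM level. Probe set 1450756_s_at, whose suffix marks probes that can match several transcripts, had 1855 and 1972 on the arrays labelled KO, against 2438 and 1526 on the LM arrays. Both KO values lay between the LM values, and the difference was -0.016 ± 0.20. These 3 probe sets share 1 annotated source sequence. The remaining pair shares another source sequence. Of that pair, 1434718_at had 583.5 and 484.8 on the arrays labelled KO, against 586.4 and 602.7 on the LM arrays (-0.15 ± 0.22), and after normalization the groups overlapped. Its partner 1434717_at had 456.8 and 405.0 on the arrays labelled KO, against 535.6 and 305.2 on the LM arrays (0.070 ± 0.27). The lower limits of the 95% intervals for these 3 were 73.4%, 65.3% and 70.5% of the LM level. Among the 5, a halving of signal lay outside every interval.

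For 3 of the 5 Cul3 probe sets the LM pair itself was far apart. The LM gap was 0.47 for 1422795_at, 0.70 for 1450756_s_at and 0.70 for 1434717_at on the log2 scale, each with LM replicate 2 lower. Among tested probe sets within 0.5 of the same mean log2 value, 96.5%, 99.3% and 95.4% had a smaller LM gap. The KO gaps of these probe sets, 0.20, 0.11 and 0.19, were larger than those of 67.2%, 35.2% and 37.3% of the same probe sets. The other 2 had LM gaps of 0.013 and 0.080. The 3 wide probe sets do not all share a source sequence, and 1 probe set of the same source sequence as 2 of them, 1422794_at, had the narrow gap of 0.013.

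The differences of these probe sets moved with the array left out. Without LM replicate 1 the values were 0.54 for 1422795_at, 0.33 for 1450756_s_at and 0.42 for 1434717_at. Without LM replicate 2 they were 0.077, -0.37 and -0.28, so 1422795_at kept its sign and the other 2 did not. Leaving out KO replicate 1 gave 0.032 for the brightest probe set, 0.039 for 1450756_s_at and -0.026 for 1434717_at. The value of 1434718_at was -0.29 without KO replicate 1, while leaving out KO replicate 2 gave -0.011. No Cul3 probe set passed the threshold in any of these fits, in which the lone array is assumed to vary like the other group.

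**Figure D2:**
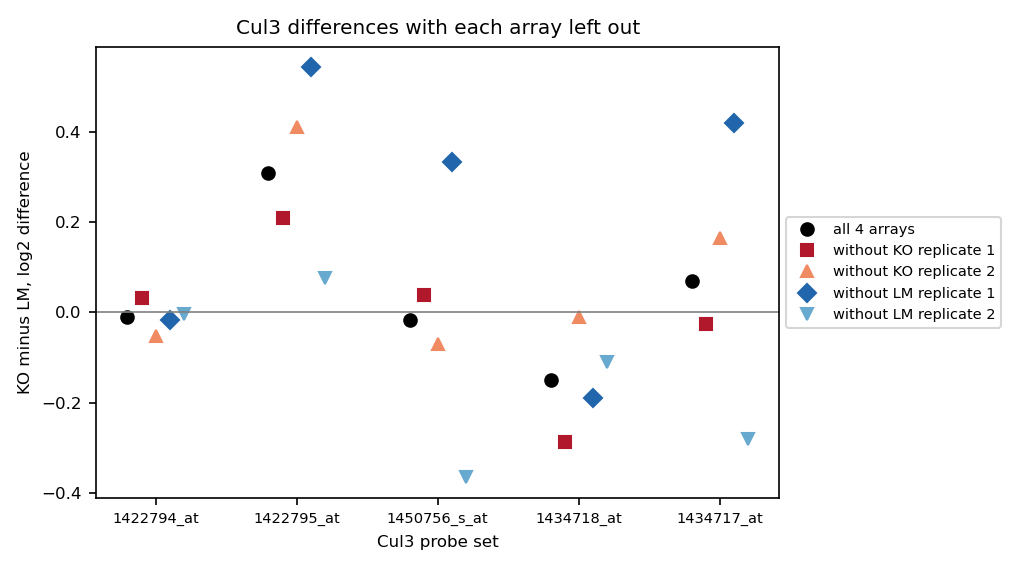
KO minus LM log2 difference of each Cul3 probe set (horizontal axis) with all 4 arrays (black) and with each array left out. Probe set 1422794_at, the brightest, stays between -0.053 and 0.032, while 1450756_s_at and 1434717_at move from -0.37 to 0.33 and from -0.28 to 0.42, with the LM arrays (blue) at both extremes.

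Cul1, the scaffold of the F-box ligases, was read by 1 probe set. It had 1175 and 1224 on the arrays labelled KO, against 1142 and 1269 on the LM arrays. The KO values lay inside the LM range. The difference was 0.0075 ± 0.17 (SE, limma adjusted p = 0.998), and its interval ran from 77.8% to 130% of the LM level.

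Cul2, the scaffold of ligases that include the one with the von Hippel-Lindau protein Vhl as substrate receptor, gave the most divided reading. Its brighter probe set, 1451231_a_at, which recognises alternative transcripts of the gene, had 898.7 and 1190 on the arrays labelled KO, against 876.2 and 804.5 on the LM arrays. Both KO values were above both LM values, with a difference of 0.31 ± 0.20 (SE, limma adjusted p = 0.781), or 0.11 without KO replicate 2. The dimmer one, 1419765_at, had 138.3 and 113.8 on the arrays labelled KO, against 248.5 and 199.2 on the LM arrays. Both KO values were below both LM values. This was the cullin probe set with the smallest p: the difference was -0.80 ± 0.33 (limma unadjusted p = 0.0314, adjusted p = 0.570), a level of 57.5% of LM with an interval from 35.0% to 94.4%. On 1 array it stood only 1.36-fold above the background level, against at least 8.06-fold for the brighter probe set. The difference between the 2 probe sets' responses was -1.11. Its exact permutation p was 0.333 (two-sided), the smallest that 2 arrays against 2 can give. The lack of overlap in opposite directions fixed that p, so it decides nothing. Of 5708 genes with several tested probe sets, 56.4% had differences of both signs, as did 2 of the 4 such cullins, Cul2 and Cul3. Averaging the Cul2 probe sets gave -0.24.

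The Cul4 pair, which carries Ddb1 and its DCAF receptors, was read by 3 probe sets. Cul4a had 2272 and 2312 on the arrays labelled KO, against 1785 and 2086 on the LM arrays. Both KO values were higher, by 0.24 ± 0.14 (SE, limma adjusted p = 0.753), with an interval from 95.3% to 147% of the LM level. Without LM replicate 1 the difference was 0.14, and without LM replicate 2 it was 0.35. Cul4b, encoded by a separate gene, had 2458 and 2417 on the arrays labelled KO, against 2488 and 2407 on the LM arrays, for its brighter probe set 1417453_at. The difference was -0.0043 ± 0.13, with an interval from 81.8% to 121% of the LM level, and the KO values lay inside the LM range. The dimmer Cul4b probe set 1417454_at, of the same source sequence, had 788.2 and 608.5 on the arrays labelled KO, against 763.3 and 632.4 on the LM arrays (-0.0016 ± 0.22). Here the LM values lay inside the KO range, and replicate 1 was the higher array in both groups.

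Cul5, the scaffold of the SOCS-box ligases that act on cytokine receptor signalling, was read by 3 probe sets, all with small positive differences. The brightest, 1456102_a_at, had 3211 and 3376 on the arrays labelled KO, against 3369 and 2810.2 on the LM arrays (0.11 ± 0.13). Probe set 1452722_a_at had 1062 and 1137 on the arrays labelled KO, against 1046 and 1099 on the LM arrays (0.046 ± 0.18). The groups overlapped in both. The dimmest, 1428287_at, had 180.5 and 226.8 on the arrays labelled KO, against 162.7 and 216.0 on the LM arrays (0.080 ± 0.32), again with overlap. Limma adjusted p-values were 0.911 to 0.986, and each probe set turned sign when 1 array was left out. The values were -0.043 for 1456102_a_at without LM replicate 2, -0.0061 for 1452722_a_at without KO replicate 2 (and -0.015 with median centring), and -0.16 for 1428287_at without LM replicate 1.

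Cul7 and Cul9 are atypical cullins. Cul7, part of the 3M complex with Obsl1 and Ccdc8, had 461.1 and 388.0 on the arrays labelled KO, against 357.9 and 418.8 on the LM arrays. The groups overlapped, and the difference was 0.13 ± 0.24 (SE, limma adjusted p = 0.956), or -0.024 without LM replicate 1. Cul9 had 115.3 and 212.1 on the arrays labelled KO, against 117.5 and 93.1 on the LM arrays, for 1427620_at. KO replicate 2 stood 2.54-fold above background and the other 3 arrays at most 1.18-fold, and after normalization both KO values were above both LM values. The difference of 0.47 ± 0.40 (limma adjusted p = 0.853) was 0.10 without KO replicate 2 and 0.84 without KO replicate 1, and its interval, 76.7% to 250.3% of the LM level, was the widest of the family. The second Cul9 probe set, 1439866_at, read 12 and 21.5 on the arrays labelled KO, against 22.8 and 27.2 on the LM arrays. It was below background on all 4 arrays and was not tested.

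**Figure D3:**
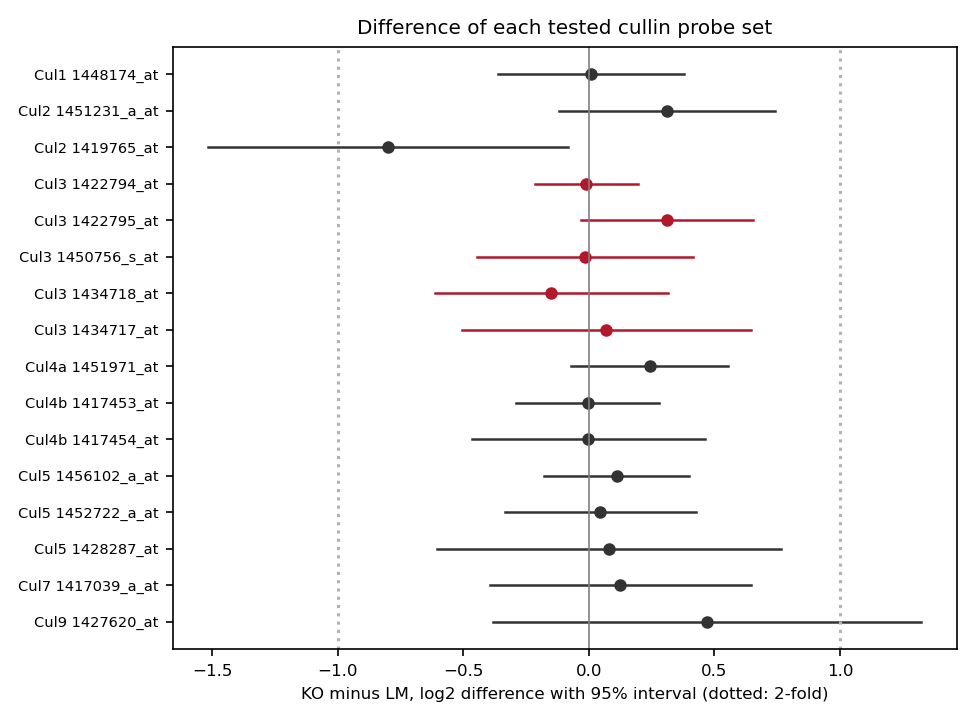
KO minus LM log2 difference of the 16 tested cullin probe sets with 95% intervals from limma, Cul3 in red and the others in dark grey; dotted lines mark a 2-fold difference. All intervals but those of Cul2 1419765_at and Cul9 1427620_at lie within the dotted lines, and only that of 1419765_at does not reach 0.

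The intervals set what these arrays could show. For 14 of the 16 cullin probe sets the 95% interval lay within a 2-fold difference in both directions, as it did for 75.1% of all probe sets tested. For 8 it lay within 1.5-fold. The exceptions at 2-fold were the dim Cul2 and Cul9 probe sets. The median SE was 0.20 among cullin probe sets and 0.24 over all. What could be detected thus differed between probe sets, and a p above the threshold does not show that levels were equal. In sorted bulk RNA, a change in the share of cells and a change in RNA per cell cannot be told apart.

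**Figure D4:**
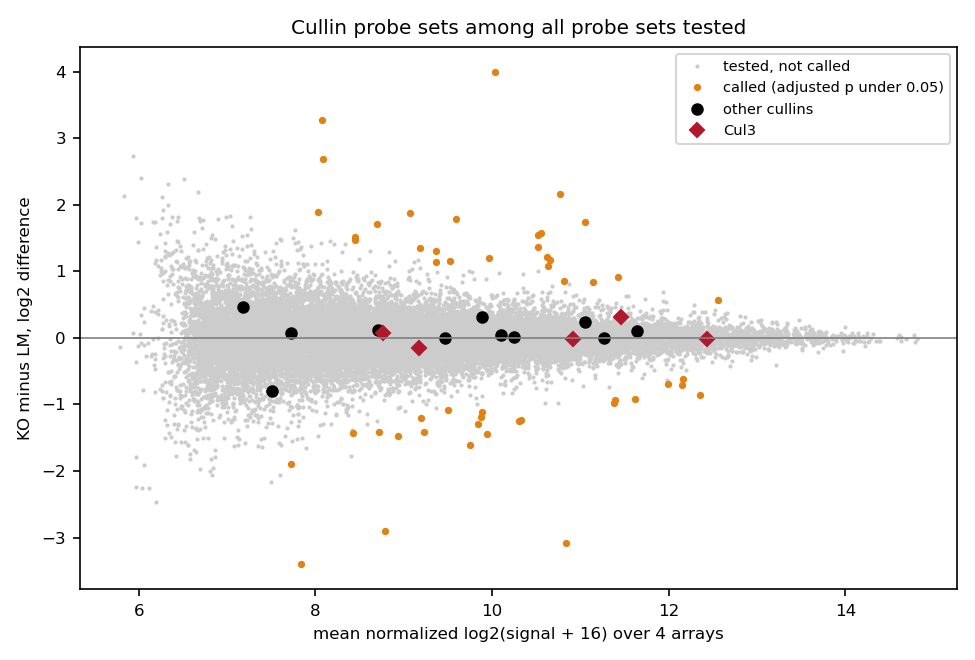
KO minus LM log2 difference against mean normalized log2(signal + 16) for 21793 tested probe sets (light grey), those called in limma (orange), Cul3 (red diamonds) and the other cullins (black). The cullins lie inside the grey cloud, from -0.80 to 0.47.

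The profile nearest to that of Cul3 over the 4 arrays was sought among 11252 other tested genes, by the root mean square difference of normalized log2 values after subtracting each gene's mean. The 3 nearest were Fam120a (0.0067), Nit1 (0.0078) and Psmd5 (0.0083), against a median of 0.18, and all 3 were nearly level on the 4 arrays. Among the cullins the nearest were Cul4b (0.048) and Cul1 (0.052), and the farthest was Cul9 (0.34). With 4 arrays and a level profile, this distance reads mainly how steady a probe set is.

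The partners of the cullins were examined by the brightest probe set of each gene. Of 59 listed genes 58 had a probe set and 55 were tested. In limma 0 passed in either direction, against 0.293% of 11253 genes. At an unadjusted p below 0.05 there were 2 of the 55, against 7.97% of all probe sets tested. The median difference of the 55 was -0.036, beside 0.0018 over all genes, with 20 positive and 35 negative.

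Among the RING proteins, Rbx1, the partner of most cullins, had 605.4 and 682.8 on the arrays labelled KO, against 575.0 and 555.3 on the LM arrays (0.19 ± 0.21). Rnf7, the RING partner of Cul5, had 2885 and 2612 on the arrays labelled KO, against 2865 and 2614 on the LM arrays (0.018 ± 0.13, or -0.045 with median centring). Neither passed the threshold, and Rbx1 was at 0.11 without KO replicate 2 and 0.26 without KO replicate 1.

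In the NEDD8 chain, 8 of 9 measured genes were tested, 1 with a positive and 7 with a negative difference, with a median of -0.066. The positive one was Ube2f, the NEDD8-conjugating enzyme that serves Cul5, which had 1174 and 1021 on the arrays labelled KO, against 852.2 and 841.5 on the LM arrays. The groups did not overlap, with a difference of 0.37 ± 0.18 (limma adjusted p = 0.662), or 0.065 with the mean of its probe sets. The co-E3 Dcun1d2, of the family that promotes NEDD8 transfer, had 414.5 and 439.5 on the arrays labelled KO, against 575.4 and 496.4 on the LM arrays (-0.32 ± 0.22), and Dcun1d5 differed by -0.18 ± 0.14, or by -0.31 without LM replicate 1, -0.046 without LM replicate 2 and 0.0054 with the mean of its probe sets.

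For NEDD8 removal, 11 of 11 genes were tested, 3 positive and 8 negative, with a median of -0.048. Cops5, the catalytic subunit of the COP9 signalosome, had 1194 and 1048.5 on the arrays labelled KO, against 1448 and 1582 on the LM arrays. Both KO values were lower, by a log2 difference of -0.43 ± 0.17 (limma unadjusted p = 0.0250, adjusted p = 0.524), or -0.28 with the mean of its probe sets. Cops8, another subunit, differed by -0.43 ± 0.23 with overlapping groups. Its difference was -0.71 without LM replicate 1 and -0.14 without LM replicate 2. It was -0.58 without KO replicate 1 and -0.27 without KO replicate 2. Gps1, the first subunit, differed by -0.22 ± 0.20, which became -0.10 when KO replicate 1 was left out and -0.33 when KO replicate 2 was.

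The adaptors differed little. Eloc and Elob, the elongins of Cul2 and Cul5 ligases, differed by 0.081 ± 0.096 and 0.025 ± 0.13, and Ddb1 of the Cul4 ligases by -0.055 ± 0.15. Eloc was at 0.014 without LM replicate 1 and 0.15 without LM replicate 2, and Elob turned to -0.036 with median centring. Cand2, Glmn and Cacul1, which exchange, inhibit or associate with cullins, differed by 0.026, -0.050 and 0.047, all with overlapping groups; with median centring Cand2 was at -0.020 and Cacul1 at -0.012, and with the mean of its probe sets Cacul1 was at 0.34.

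Of 25 substrate receptors 24 were tested, 9 positive and 15 negative, with a median of -0.055. Dtl, a Cul4 receptor that acts in S phase, had 185.5 and 246.9 on the arrays labelled KO, against 359.3 and 373.9 on the LM arrays. Both KO values were lower, by a log2 difference of -0.74 ± 0.27 (limma unadjusted p = 0.0157, adjusted p = 0.464), the largest among the partners. Klhl12, a BTB adaptor of Cul3, had 420.6 and 499.1 on the arrays labelled KO, against 347.1 and 325.8 on the LM arrays (0.43 ± 0.23, adjusted p = 0.718). Asb2, a SOCS-box receptor of Cul5, differed by 0.41 ± 0.21. Obsl1, a dim partner of Cul7, differed by 0.54 ± 0.39 (0.30 without LM replicate 1 and 0.78 without LM replicate 2). Anapc2, the subunit of the anaphase-promoting complex with a cullin homology region, differed by -0.18 ± 0.23 (0.088 without LM replicate 1).

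**Figure D5:**
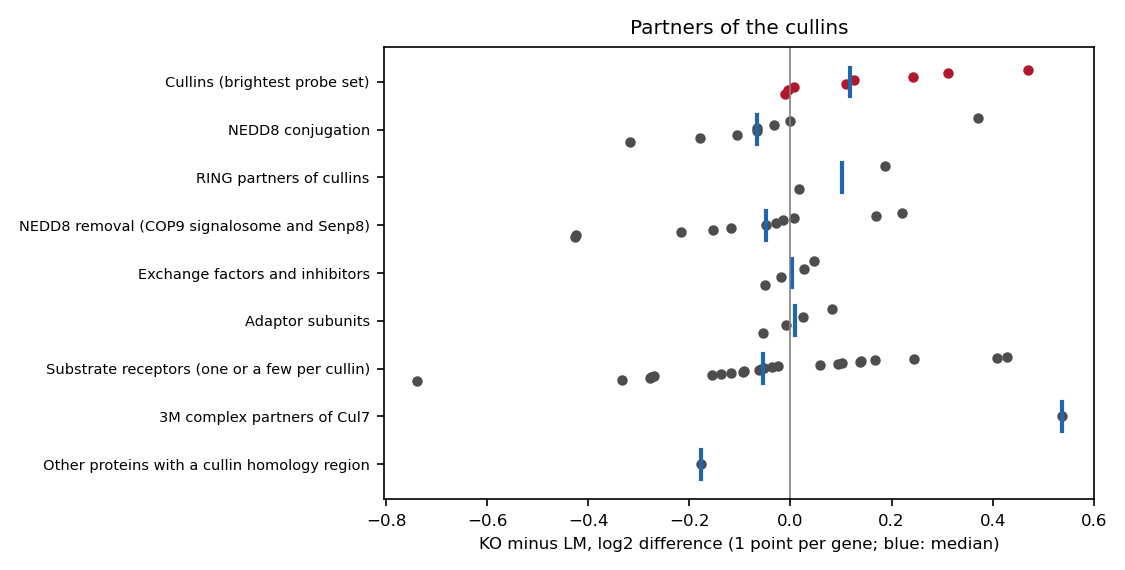
KO minus LM log2 difference of the brightest probe set of each tested gene (1 point per gene), for the cullins (red) and their partners by role (dark grey), with the median of each role in blue. Differences of the partners run from -0.74 (Dtl) to 0.54 (Obsl1), and none passed the threshold.

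The sorted cells were checked against markers. All 8 measured markers listed for CD4 single-positive T cells, Cd4 among them, were above background on every array. The summed signal of the 8 was 58423 and 54978 on the arrays labelled KO and 57267 and 58461 on the LM arrays. Several of the 8, such as the Cd3 genes, are general T cell genes, so the sum does not mark the CD4 lineage alone. Of the B cell markers 3 of 4 and of the thymic epithelial markers 4 of 5 were below background on all arrays. So were 3 of 7 macrophage or dendritic markers and 2 of 3 erythroid markers. Of the rest, Cd68 and Epcam were above background on all 4 arrays, Cd79a and Alas2 on 3, Csf1r and Lyz2 on 2, and Itgam on 1. The CD8 T cell markers, 3 of 3 above background, summed to 2352 and 2007 on the arrays labelled KO and 2212 and 2115 on the LM arrays. NKT cell markers (2 of 3 above background on all arrays) summed to 1277 and 1177 on the arrays labelled KO and 1067 and 957.7 on the LM arrays. That sum was mostly Il2rb, with 1083 and 1006 on the arrays labelled KO, against 835.5 and 744.5 on the LM arrays. Zbtb16 went the other way, with 119.4 and 110.7 on the arrays labelled KO, against 163.9 and 157.6 on the LM arrays. Gamma delta T cell markers (1 of 3) summed to 520.7 and 420.7 on the arrays labelled KO and 561.4 and 476.6 on the LM arrays. Regulatory T cell markers, 4 of 4 above background, summed to 5496 and 4795 on the arrays labelled KO and 3827 and 3577 on the LM arrays. All 4 had positive differences, and 0 passed the threshold. Ikzf2 had 2953.6 and 2741.8 on the arrays labelled KO, against 1942.6 and 2121.5 on the LM arrays. Il2ra, the gene of CD25, had 962.6 and 948.5 on the arrays labelled KO, against 611.3 and 540.0 on the LM arrays. For Foxp3 and Ctla4 the groups overlapped. Cycling cell markers summed to 13721 and 13456 on the arrays labelled KO and 20613 and 21892 on the LM arrays. All 7 tested had negative differences. In limma 3 of the 7 passed the threshold (Mki67, Top2a and Ccna2), against 0.293% of 11253 genes. The part of the regulatory T cell and cycling cell differences in the values above, that of Dtl included, was not tested. Array correlations over tested probe sets ran from 0.955 to 0.969, with 0.958 for the KO pair and 0.969 for the LM pair. With LM replicates 1 and 2, KO replicate 1 correlated at 0.961 and 0.959, and KO replicate 2 at 0.957 and 0.955. The KO arrays were thus not clearly closer to each other than to the LM arrays.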

How the data were processed

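The values the authors deposited are linear intensities, 1 for each probe set on an array, from 0.1 to 43129. Each array had been scaled to a trimmed mean of 500.0 (2% left out at each end), as tested on the values. The sources used here do not give the summarising program, background correction or detection calls. Controls, 64 of 45101 probe sets, were not used. The platform annotation gave 34945 of the rest 1 gene symbol, 932 several and 9160 none. All 8 cullin symbols matched the RefSeq gene table. Intensities were taken as log2(signal + 16), which understates changes of dim genes, and quantile normalized. A probe set was tested if it exceeded, on at least 2 arrays, that array's background, the 95th percentile of 80 probe sets for olfactory or vomeronasal receptors (signals of 97.5 and 83.4 on KO replicates 1 and 2 and 109 and 85.2 on LM replicates 1 and 2). KO minus LM was fitted per probe set over the whole table with limma 3.58.1 (lmFit, eBayes with an intensity trend) in R 4.3.3, with genotype as the only term, 2 residual degrees of freedom and 11.1 borrowed. P-values are two-sided and Benjamini-Hochberg adjusted over all 21793 tested probe sets, with a threshold of 0.05. The number of arrays limits the precision. The fit was also run on simulated data drawn from its own variance model, which cannot check how the real arrays vary. Plots used matplotlib 3.10.9.

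All cullin probe sets are named, the 3 genes of each partner list with the smallest p, and the 3 profiles nearest to the brightest Cul3 probe set. The 3 cycling markers and the markers of other cell types were named after their values were seen. The members, lists and tests were chosen with earlier results of these data known. Alternatives were other filters, normalizations, pseudocounts, moderation, gene summaries, the replicate number as a block, and each array left out.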

Additional observations from a re-analysis of the deposited data

How the results depend on the processing

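No cullin probe set and no partner gene passed the threshold in any of the 15 alternatives, where the lowest adjusted p of a cullin was 0.171. Over all probe sets, 1 was called higher and 1 lower without the filter, and 0 and 0 without the eBayes trend (where 1678 lay at an unadjusted p below 0.05). The counts were 41 higher and 36 lower with signal above background on all 4 arrays, 41 and 57 with median centring, 15 and 16 with the brightest probe set per gene, and 14 and 10 with gene means. With 1 array left out they ran from 56 to 94 higher and from 43 to 160 lower. The replicate block gave 36 higher and 33 lower and a Cul3 difference of -0.010; same-numbered arrays did not deviate together (correlation -0.0067), and the labels give no shared source for a number. Of 223 recomputed cullin differences 22 turned sign, as did 19 of 283 for named partners. Outside the fits without 1 array these were Cul1 (-0.0051 without normalization, -0.055 with median centring), Cul5 1452722_a_at (-0.015 with median centring), and with gene means Cul2 (-0.24) and Cul3 (0.041). For partners they were, with median centring, Rnf7 (-0.045), Cand2 (-0.020), Cacul1 (-0.012) and Elob (-0.036), and with gene means Dcun1d5 (0.0054), Cand2 (-0.056) and Elob (-0.16). With each array left out in turn, Cul1 ran from -0.071 to 0.086, the brightest Cul3 probe set from -0.053 to 0.032, 1450756_s_at from -0.37 to 0.33, 1434717_at from -0.28 to 0.42, Cul4b from -0.046 to 0.037 (1417453_at) and from -0.19 to 0.19 (1417454_at), Cul5 from -0.043 to 0.26 (1456102_a_at), from -0.0061 to 0.097 (1452722_a_at) and from -0.16 to 0.32 (1428287_at), and Cul7 from -0.024 to 0.28. Among partners, Rnf7 ran from -0.068 to 0.10, Cand2 from -0.093 to 0.15, Glmn from -0.41 to 0.31, Cacul1 from -0.054 to 0.15, Elob from -0.061 to 0.11, Ddb1 from -0.11 to 0.0034 and Anapc2 from -0.44 to 0.088. The cause of these turns was not tested. Signal over background limits the dim Cul2, Cul5 and Cul9 probe sets.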

Other observations

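The array carries 4 control probe sets for the bacteriophage cre gene, whose transcript is a customary hybridisation spike. Their mean signal was 35816 and 33714 on the arrays labelled KO and 33156 and 38383 on the LM arrays. Relative to the 4 bioD spike probe sets, the ratio was 1.77 and 1.67 on the arrays labelled KO and 1.84 and 1.80 on the LM arrays. These probe sets therefore give no reading of the CD4-Cre transgene.

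LM replicate 2 gave the lowest normalized value for 7 of the 16 tested cullin probe sets, LM replicate 1 for 5, KO replicate 2 for 3 and KO replicate 1 for 1. Over all probe sets tested the shares were 23.2% for LM replicate 2, 24.1% for LM replicate 1, 28.1% for KO replicate 2 and 24.6% for KO replicate 1. Probe sets of 1 gene are not independent of each other, so these counts are a description.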
